A study of Rattus norvegicus with 3 samples.

Results

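The genes described here encode the enzymes and regulators of glycolysis and of glycogen storage and breakdown, the cytosolic route by which muscle turns glucose and glycogen into pyruvate and lactate. They were chosen by name, as 37 rat gene symbols, and all 37 had at least 1 non-control probe on the array, out of 15168 genes with a symbol. The 37 genes had 48 probes, 27 of them with 1 probe and 10 with several. Messenger RNA was measured in calf muscle of male rats (strain given as Wistar Honnover) aged 12 weeks, on 3 one-colour Agilent arrays with 1 array per group. The groups were the normal soleus of untreated rats, the normal plantaris of untreated rats, and the soleus taken 28 days after the left sciatic nerve had been cut in the gluteal region (about 5 mm). How many animals contributed to an array is not stated in the labels, and the normal soleus array, titled only Post, was placed by its source name. There are no replicates, so no test across animals is possible and every fold describes these 3 arrays. A "±" gives the scanner software's measurement error.

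Glycogen is built from UDP-glucose by glycogen synthase on a glycogenin primer and is broken down by glycogen phosphorylase, which phosphorylase kinase switches on when calcium rises during contraction. Phosphofructokinase commits the sugar to glycolysis, and the lower part of the pathway yields pyruvate, which lactate dehydrogenase converts to lactate. Fast-twitch fibres are known for high glycolytic enzyme content and slow-twitch fibres, which dominate the soleus, for oxidative metabolism. Several steps have a muscle isoform and a more widely expressed isoform encoded by separate genes.

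The fibre markers followed the muscle labels. The summed level of 7 slow fibre markers (linear signal over the array's 75th percentile) was 2890 in normal soleus, 1240 in denervated soleus and 532 in plantaris. That of 9 fast fibre markers was 802, 946 and 4860. All 7 measured markers of skeletal muscle fibres were well above background on each array, with sums of 2440, 1580 and 3420. Slide 1 held the normal soleus and the plantaris in 1 scan and slide 2 the denervated soleus, so denervation and slide cannot be told apart. The share of the 30367 probes well above background ran from 64.2% to 67.0%. In whole muscle, fewer cells of a type and less RNA per cell cannot be told apart.

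Promoter sequence is shown for 5 genes whose values separate paralogs or set a member apart below: the phosphoglycerate mutases Pgam2 and Pgam1, the lactate dehydrogenases Ldha and Ldhb, and Pfkfb1. Each line gives the 250 bases before the annotated start, 5′ to 3′ on the gene's strand, from RefSeq on build GRCr8. The array design was drawn on an older build (rn4) and carries no measurement at these windows. Capitals mark every exact match, on both strands, to the motifs searched. These were the E-box CANNTG, the MEF2 motif, the MEF3 motif TCAGGTT, the hypoxia response core ACGTG and the GC box GGGCGG. The MEF2 motif was searched as YTAWWWWTAR, where Y is C or T, W is A or T and R is A or G. Near matches were not marked or counted. CACGTG counts as an E-box and as an ACGTG match on each strand.
Pgam2: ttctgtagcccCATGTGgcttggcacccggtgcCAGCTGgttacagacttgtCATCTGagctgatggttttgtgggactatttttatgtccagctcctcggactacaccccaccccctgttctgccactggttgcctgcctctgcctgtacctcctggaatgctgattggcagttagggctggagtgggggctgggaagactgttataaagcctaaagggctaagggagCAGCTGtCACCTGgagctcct
Pgam1: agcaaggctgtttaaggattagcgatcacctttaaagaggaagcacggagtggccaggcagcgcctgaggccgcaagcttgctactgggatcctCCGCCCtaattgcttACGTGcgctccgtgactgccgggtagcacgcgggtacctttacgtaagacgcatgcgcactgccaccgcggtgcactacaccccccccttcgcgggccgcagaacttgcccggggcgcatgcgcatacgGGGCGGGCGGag
Ldha: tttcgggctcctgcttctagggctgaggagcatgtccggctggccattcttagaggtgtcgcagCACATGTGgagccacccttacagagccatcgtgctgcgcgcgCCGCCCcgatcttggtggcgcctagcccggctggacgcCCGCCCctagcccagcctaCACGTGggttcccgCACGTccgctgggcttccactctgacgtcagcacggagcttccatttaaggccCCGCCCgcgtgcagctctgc
Ldhb: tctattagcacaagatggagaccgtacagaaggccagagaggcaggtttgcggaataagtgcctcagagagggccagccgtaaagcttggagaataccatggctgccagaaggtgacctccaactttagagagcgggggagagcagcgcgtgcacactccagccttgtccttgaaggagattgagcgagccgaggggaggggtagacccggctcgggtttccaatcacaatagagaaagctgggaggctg
Pfkfb1: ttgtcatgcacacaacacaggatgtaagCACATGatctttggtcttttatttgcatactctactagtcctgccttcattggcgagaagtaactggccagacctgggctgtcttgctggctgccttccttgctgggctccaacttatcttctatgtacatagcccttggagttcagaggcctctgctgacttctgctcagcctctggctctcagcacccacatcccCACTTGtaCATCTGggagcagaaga
The windows are chr14:84897875-84898124, minus strand for Pgam2; chr1:250672902-250673151, plus strand for Pgam1; chr1:106507842-106508091, plus strand for Ldha; chr4:177177409-177177658, minus strand for Ldhb; and chrX:22941926-22942175, plus strand for Pfkfb1. Pgam2, the muscle mutase, held 5 E-boxes and no exact match to the other motifs. Its stretch ctatttttat missed the MEF2 motif in the last base alone. Pgam1, its widely expressed paralog, held no E-box, 1 ACGTG core and 3 GC boxes. Ldha held 3 E-boxes, 3 ACGTG matches and 3 GC boxes, and the Ldhb window held no match to any of the 5 motifs. Pfkfb1 held 3 E-boxes. The E-box split of the Pgam and Ldh genes was not shared by most other isoform pairs. Pygm held 3 E-boxes and Pygb 0. The muscle form held fewer in Aldoa (0) with Aldoc (1), Eno3 (1) with Eno1 (3) and Hk2 (0) with Hk1 (2). Likewise Pfkm held 0, Pfkl 2 and Pfkp 1.

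Windows were found for 34 of the 37 genes, and a window was not found for Fbp2, Gpd1 and Pgk1. An E-box lay in 21 of the 34 windows (61.8%), against 65.5% of all 33469 windows of the same length. That background was not limited to genes on the array or to 1 window per gene, as the members were. The ACGTG core lay in 13 (38.2%, against 16.6%) and a GC box in 18 (52.9%, against 30.5%). An exact MEF2 match was found in 1 window, that of Ppp1r3a (2.94%, against 2.96%), and a MEF3 motif in 1, that of Pfkp (2.94%, against 3.30%). These matches describe letters in a window and were not tested for binding or effect.

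The comparison of normal plantaris with normal soleus asks how a faster muscle differs from a slow one. Of 36 genes with a fold, 24 were at least 2-fold higher in plantaris and 2, Ldhb and Gbe1, at least 2-fold lower. Of all 10985 genes measured, 5.76% passed 2-fold upward and 6.14% downward. Above 0 lay 27 of the 36, where 52.3% of all genes did. The median log2 fold of the 36 genes was 1.45, against 0.02 over all genes. Glycogen breakdown had the highest median of the 6 role groups (2.23, 6 genes), and hexose phosphorylation (0.26, 3 genes) and glycogen synthesis and targeting (0.46, 6 genes) the lowest.

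The comparison of denervated with normal soleus asks what differs in a slow muscle without its nerve. Of 35 genes with a fold, 13 were at least 2-fold lower in the denervated soleus and 0 at least 2-fold higher. Of all 11237 genes measured, 13.5% passed 2-fold downward and 8.80% upward. The median was -0.86, against 0.03 over all genes, and 30 of the 35 lay below 0 and 5 above, where 48.4% and 51.6% of all genes did. Here glycogen synthesis and targeting had the lowest group median (-1.15, 4 of 6 genes at least 2-fold lower). The muscle fibre markers were mixed on the same array (7 genes, median -0.60, with Acta1, Ckm and Des past 2-fold, Tnnt1 at -0.60, Mb at -0.18, Tnnc2 at 0.13 and Tnnt3 at 0.41), and their part in the result was not tested.

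**Figure D1:**
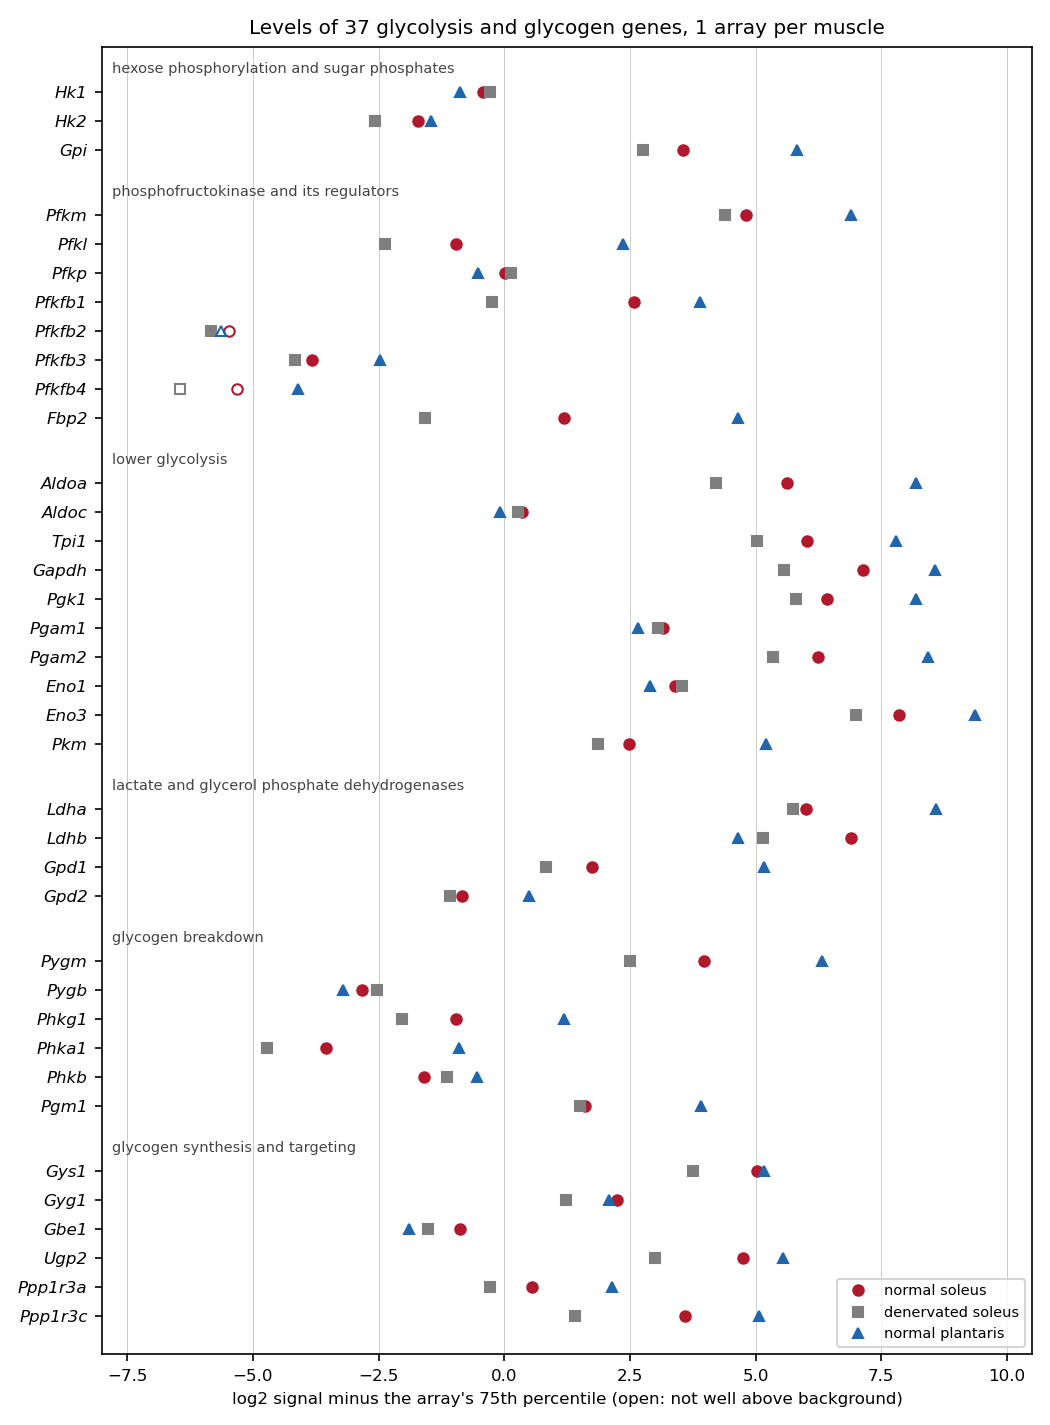
Levels of the 37 genes on the 3 arrays, as log2 signal minus the array's 75th percentile, 1 point per array; circles are normal soleus, squares denervated soleus and triangles normal plantaris, and open symbols were not well above background. In 25 of the 35 genes well above background on all 3 arrays the triangle lies rightmost and the square leftmost.

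Both comparisons use the same normal soleus array, so they are not independent, and the order of the 3 levels is given as a description. Levels were highest in plantaris, intermediate in normal soleus and lowest in denervated soleus for 25 of the 35 genes well above background on all 3 arrays (71.4%). That order held for 27.0% of the 9855 genes well above background on all 3 arrays. Hk1, Pfkp, Eno1 and Pygb ran from denervated soleus down to plantaris (4 genes, 11.4%, against 24.9%). Aldoc, Pgam1, Ldhb and Gbe1 were highest in normal soleus and lowest in plantaris (4 genes, 11.4%, against 8.82%). Phkb was highest in plantaris and lowest in normal soleus (2.86%, against 9.54%), Gyg1 highest in normal soleus and lowest in denervated soleus (2.86%, against 14.1%), and 0 members were highest in denervated and lowest in normal soleus (against 15.6%). Some neighbours in these orders lay within the scanner error of each other, as the normal muscles did in Gys1 and normal and denervated soleus in Aldoc and Pgm1. The place of Pfkl among the 25 depends on the probe. Its other probe stood at -1.12 in normal soleus, -2.30 in denervated soleus and -1.25 in plantaris. Set directly against plantaris, the denervated soleus was at least 2-fold lower in 26 of 36 genes and at least 2-fold higher in 0, where 16.8% and 12.0% of 11324 genes were (median -2.42, against 0.01). Of the 36, 28 lay below 0, where 49.4% of all genes did. On the fibre side, 4 of 9 fast fibre markers were at least 2-fold higher in denervated than in normal soleus and 0 lower, against 8.80% and 13.5% of all genes. Those higher were Myh1, Myh4, Actn3 and Pvalb. The others were within 2-fold, with Tnnt3 at 0.41, Tnnc2 at 0.13, Tnni2 at -0.14, Myh2 at -0.52 and Atp2a1 at -0.85. Of the 35 glycolysis and glycogen genes 0 were at least 2-fold higher.

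**Figure D2:**
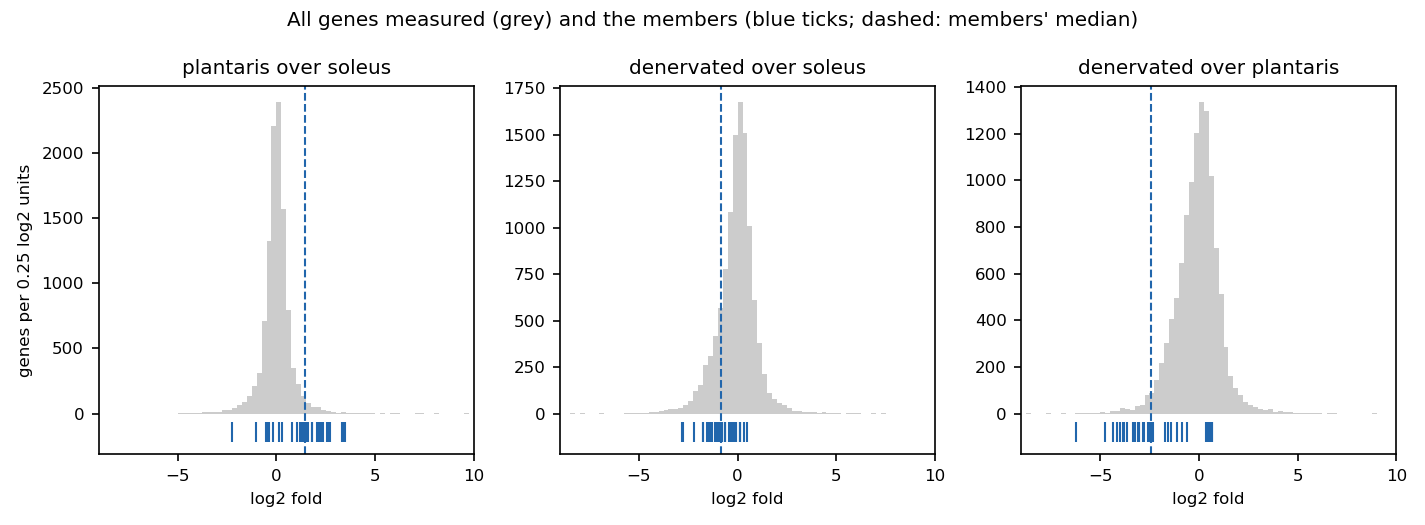
Distribution of log2 folds over all genes measured (grey bars, genes per 0.25 log2 units) in each comparison, with the glycolysis and glycogen genes as blue ticks and their median as a dashed line. The medians lie at 1.45, -0.86 and -2.42, and the medians of all genes between 0.01 and 0.03.

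At the entry of glucose, hexokinase phosphorylates the sugar and glucose phosphate isomerase (Gpi) turns it into fructose phosphate. The log2 level of Gpi was 3.55 in normal soleus, 2.77 in denervated soleus and 5.82 in plantaris. Gpi was thus 4.81-fold higher in plantaris than in soleus (2.27 ± 0.20), and its fold after denervation was -0.79 ± 0.20, short of 2-fold. Hk2, the insulin-responsive muscle hexokinase, stood at -1.72, -2.58 and -1.46 in the same order. The normal muscles differed little in Hk2 (0.26 ± 0.21), and the denervated soleus was the lowest of the 3 (-0.86 ± 0.21). Hk1, the widely expressed hexokinase, stood at -0.43, -0.29 and -0.89, all within 2-fold of each other.

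Phosphofructokinase is encoded by Pfkm, the muscle subunit, Pfkl, the liver subunit, and Pfkp, the platelet subunit. Pfkm had levels of 4.81 in normal soleus, 4.39 in denervated soleus and 6.89 in plantaris, so that plantaris was 4.23-fold higher (2.08 ± 0.20) and the denervated soleus close to normal (-0.42 ± 0.20). Pfkp lay at 0.02, 0.13 and -0.52, within 2-fold throughout. For Pfkl the 2 probes disagreed in plantaris. The brighter probe stood at -0.95, -2.37 and 2.37, a fold of 3.33 ± 0.20 for plantaris over soleus, and the other at -1.12, -2.30 and -1.25, a fold of -0.13 ± 0.21. After denervation both Pfkl probes were lower, by -1.41 and -1.18. The plantaris difference of Pfkl rests on 1 probe, and the mean over both was 1.60.

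The bifunctional enzymes of the Pfkfb family make and remove the sugar bisphosphate that activates phosphofructokinase. Pfkfb1, the form named for liver and muscle, stood at 2.58 in normal soleus, -0.25 in denervated soleus and 3.90 in plantaris. Its fold after denervation, -2.83 ± 0.20 or 7.13-fold lower, was the lowest of the 35 genes. In plantaris Pfkfb1 was 2.49-fold higher than in soleus (1.32 ± 0.20). The other members of the family were faint. Pfkfb3, the inducible form, stood at -3.82, -4.17 and -2.47 (1.35 ± 0.24 in plantaris over soleus). Its second probe was not well above background in normal soleus. Pfkfb4 was well above background in plantaris only, where it was 2.31-fold higher than the dim soleus signal (1.21 ± 0.45). With normexp background the folds of Pfkfb3 and Pfkfb4 were below 2-fold. Pfkfb2 was well above background in denervated soleus only, below the signal of the other 2 arrays, and has no fold.

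Fbp2, the muscle fructose bisphosphatase, runs the phosphofructokinase step backwards and serves glycogen synthesis from lactate. It stood at 1.18 in normal soleus, -1.58 in denervated soleus and 4.65 in plantaris. That made it 11.1-fold higher in plantaris than in soleus (3.47 ± 0.20) and 6.80-fold lower in denervated than in normal soleus (-2.77 ± 0.20). Between denervated soleus and plantaris Fbp2 spanned 75.4-fold (-6.24 ± 0.20), the widest gap among the 36 genes with a fold.

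**Figure D3:**
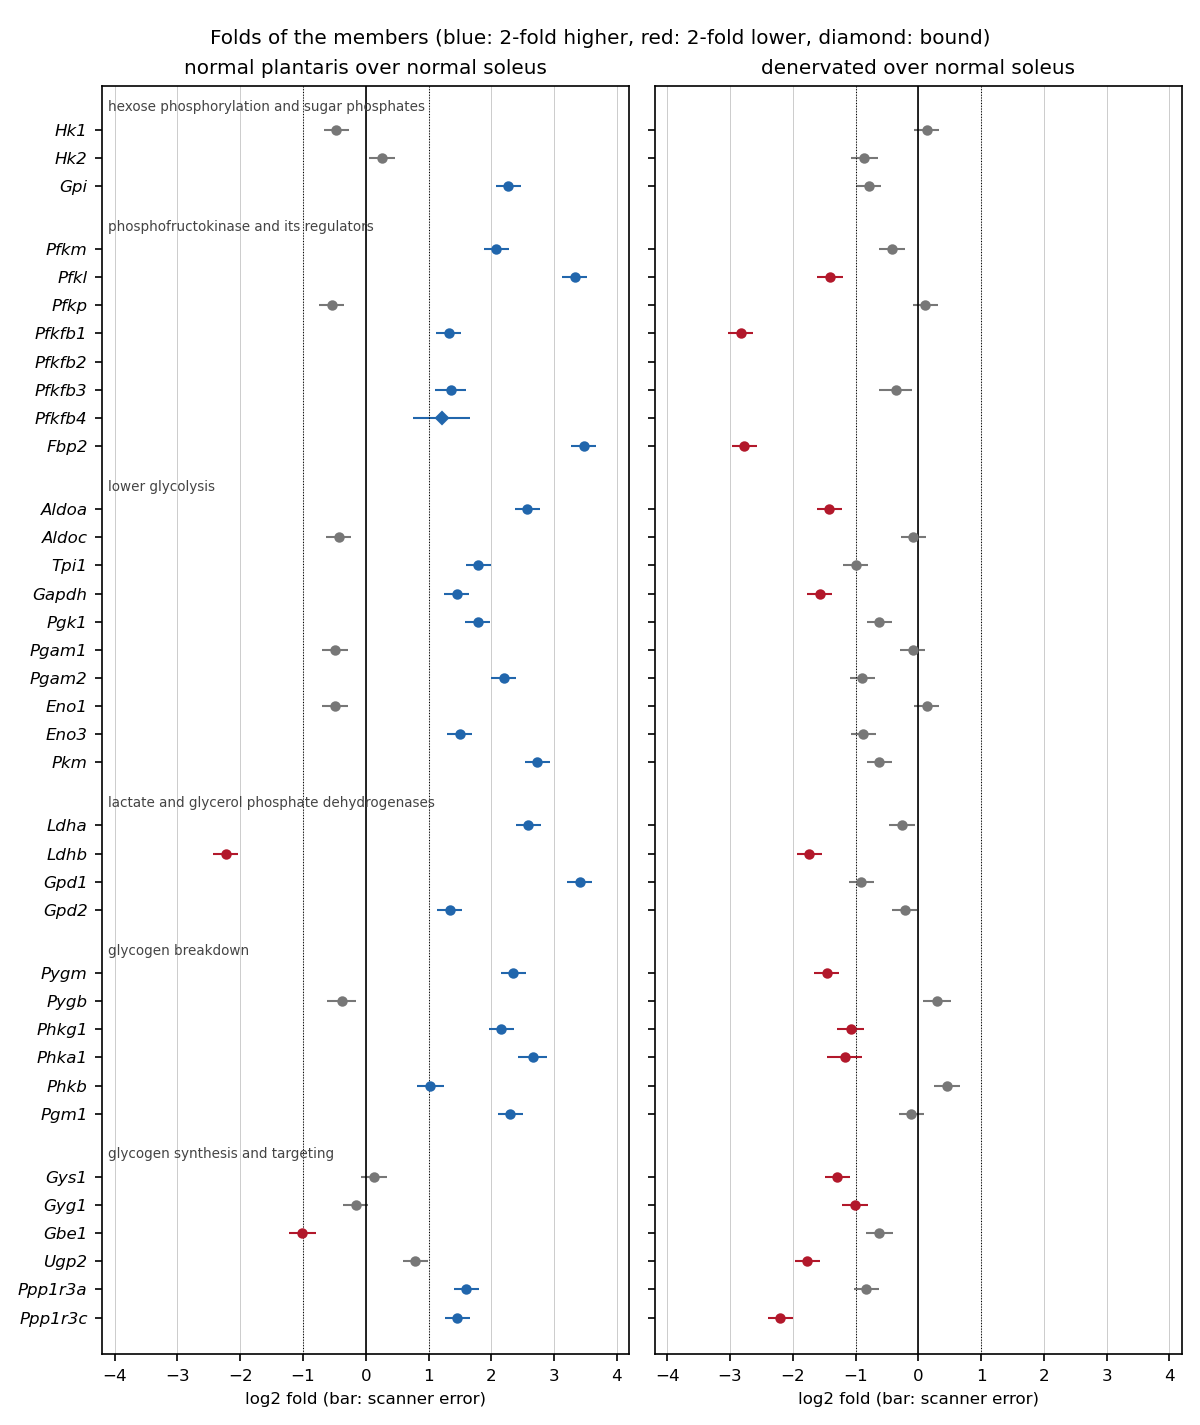
Log2 folds of the members in normal plantaris over normal soleus (left) and denervated over normal soleus (right), 1 array per group; bars are the scanner error, dotted lines mark 2-fold, blue and red points are past it, and the diamond (Pfkfb4) is a bound. On the left 24 points lie past 2-fold higher, and on the right 13 lie past 2-fold lower and 0 past 2-fold higher.

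Of the 10 genes of lower glycolysis, 7 were at least 2-fold higher in plantaris, and 2, Aldoa and Gapdh, at least 2-fold lower after denervation, against 5.76% and 13.5% of all genes. Aldolase A (Aldoa), the muscle aldolase, stood at 5.63 in normal soleus, 4.21 in denervated soleus and 8.19 in plantaris, 5.93-fold higher in plantaris (2.57 ± 0.20) and 2.68-fold lower after denervation (-1.42 ± 0.20). Gapdh, the glyceraldehyde phosphate dehydrogenase often used to normalise expression data, stood at 7.13, 5.56 and 8.58. Its 3 probes gave 1.45, 1.55 and 1.42 for plantaris over soleus and -1.57, -1.51 and -1.64 for denervated over normal soleus, so the levels of Gapdh differed 8.11-fold between denervated soleus and plantaris. Under quantile normalization the plantaris fold of Gapdh was below 2-fold (0.90).

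Triose phosphate isomerase (Tpi1) had levels of 6.02, 5.02 and 7.80, 3.45-fold higher in plantaris and 1.99-fold lower after denervation, just short of the threshold. Phosphoglycerate kinase (Pgk1) stood at 6.42, 5.80 and 8.20, a fold of 1.78 ± 0.20 in plantaris and -0.62 ± 0.20 after denervation. Pyruvate kinase (Pkm), which makes pyruvate, was 6.63-fold higher in plantaris, with levels of 2.48, 1.87 and 5.21. A second Pkm probe gave 3.06 in place of 2.73 for that fold. The files do not say which splice form of Pkm either probe reads.

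Muscle phosphoglycerate mutase (Pgam2) stood at 6.24 in normal soleus, 5.35 in denervated soleus and 8.44 in plantaris, and muscle enolase (Eno3) at 7.86, 6.99 and 9.36. Their folds were 2.20 ± 0.20 and 1.50 ± 0.20 in plantaris over soleus and -0.89 ± 0.20 and -0.88 ± 0.20 after denervation. Under quantile normalization Eno3 in plantaris was just under 2-fold (0.97). The paralogs did not follow them. Pgam1 stood at 3.16, 3.06 and 2.67, and Eno1, the widely expressed enolase, at 3.40, 3.53 and 2.90, so that both were lowest in plantaris and within 2-fold on all arrays. Of the 2 probes of Aldoc, the brain aldolase, the brighter gave -0.43 ± 0.20 in plantaris over soleus and the other 1.40 ± 0.22, and the direction of Aldoc is not settled.

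Among the 9 gene pairs compared here, the lactate dehydrogenases separated the normal muscles the most. Ldha, whose subunit prevails in fast muscle, stood at 6.0 in normal soleus, 5.74 in denervated soleus and 8.59 in plantaris, and was 6.01-fold higher in plantaris than in soleus (2.59 ± 0.20). Ldhb, whose subunit prevails in heart and slow muscle, stood at 6.89, 5.15 and 4.66. It was 4.69-fold lower in plantaris than in soleus (-2.23 ± 0.20) and 3.33-fold lower in denervated than in normal soleus (-1.74 ± 0.20). After denervation Ldha was close to normal (-0.26 ± 0.20, or 0.27 under quantile normalization). The denervated soleus thus lay nearer to plantaris in Ldhb (0.49 ± 0.20) than in Ldha (-2.85 ± 0.20). Under quantile normalization Ldhb was past 2-fold in that comparison (1.04).

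Gpd1, the cytosolic glycerol phosphate dehydrogenase of the shuttle that carries reducing equivalents to mitochondria, stood at 1.75, 0.84 and 5.17. It was 10.7-fold higher in plantaris (3.41 ± 0.20), and its denervation fold was -0.91 ± 0.20. Gpd1 is known in fat cells too. The summed level of the 7 fat cell markers with a probe was 24.5 in normal soleus, 70.2 in denervated soleus and 14.6 in plantaris. Lep was not well above background on any array. After denervation Adipoq, Cidec, Cfd and Retn were at least 2-fold higher, Fabp4 stood at 0.51 and Lpl was lower (-1.91). In plantaris over soleus Lpl was the 1 fat cell marker past 2-fold (-2.44), with Adipoq at 0.24 and Cidec at 0.33. The part of fat cells in Gpd1 was not tested. Gpd2, the mitochondrial partner, stood at -0.85, -1.07 and 0.49, 2.54-fold higher in plantaris.

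**Figure D4:**
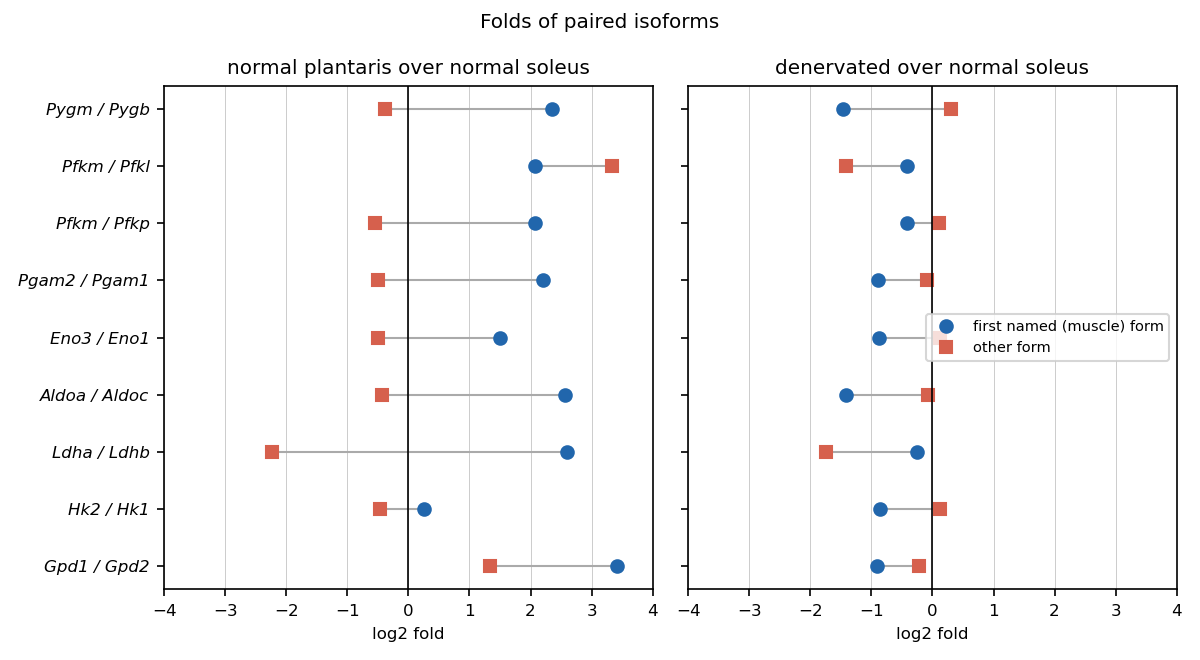
Log2 folds of paired isoforms, and of the shuttle enzymes Gpd1 with Gpd2, in normal plantaris over normal soleus (left) and denervated over normal soleus (right). The muscle or first named form is a blue circle and the other form a red square, 1 array per group. Each gene is shown by its brightest probe, and the left position of Pfkl depends on that choice. On the left the circle lies right of the square in all rows but Pfkm with Pfkl. On the right it lies left of the square in all rows but Pfkm with Pfkl and Ldha with Ldhb.

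Differences between the folds of 2 genes on the same arrays do not depend on how the arrays were scaled by a constant, and they were taken for 9 gene pairs. These are pairs of isoforms, except Gpd1 with Gpd2, the cytosolic and the mitochondrial enzyme of the glycerol phosphate shuttle. In plantaris over soleus the first named form exceeded its partner by 4.82 ± 0.29 log2 units for Ldha with Ldhb, 3.0 ± 0.29 for Aldoa with Aldoc (brighter probe), 2.74 ± 0.31 for Pygm with Pygb, 2.68 ± 0.29 for Pgam2 with Pgam1, 2.62 ± 0.29 for Pfkm with Pfkp, 2.07 ± 0.29 for Gpd1 with Gpd2, 1.99 ± 0.29 for Eno3 with Eno1 and 0.72 ± 0.29 for Hk2 with Hk1. Pfkm with Pfkl (brighter probe) went the other way (-1.24 ± 0.29). The direction of that pair depends on the probe, as the other Pfkl probe had a fold of -0.13, below that of Pfkm (2.08). In denervated over normal soleus the first named form was lower relative to its partner, by -1.76 ± 0.30 for Pygm with Pygb, -1.34 ± 0.29 for Aldoa with Aldoc, -1.01 ± 0.29 for Eno3 with Eno1, -1.0 ± 0.29 for Hk2 with Hk1, -0.80 ± 0.29 for Pgam2 with Pgam1, -0.70 ± 0.29 for Gpd1 with Gpd2 and -0.53 ± 0.29 for Pfkm with Pfkp. Ldha with Ldhb went the other way (1.48 ± 0.29), as did Pfkm with Pfkl (0.99 ± 0.29). The partners Hk1, Pfkp, Eno1, Pygb and Pgam1 are also expressed outside muscle fibres. In denervated over normal soleus their folds lay between -0.09 and 0.30, while 9 fibroblast and tendon markers had a median of 0.89 (summed level 119 in normal soleus, 271 in denervated soleus and 212 in plantaris) and 9 macrophage markers 0.47 (27.3, 26.2 and 17.5), and the part of such cells was not tested.

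In glycogen breakdown 5 of 6 genes were at least 2-fold higher in plantaris than in soleus, against 5.76% of all genes. Muscle glycogen phosphorylase (Pygm), which releases glucose phosphate from glycogen, stood at 3.97 in normal soleus, 2.51 in denervated soleus and 6.32 in plantaris. Plantaris was 5.11-fold higher than soleus (2.35 ± 0.20), and the denervated soleus 2.74-fold lower (-1.46 ± 0.20). Pygb, the brain phosphorylase, stood at -2.83, -2.53 and -3.21, within 2-fold throughout. Phosphoglucomutase (Pgm1), which moves the phosphate so that the sugar can enter glycolysis, stood at 1.61, 1.50 and 3.91, 4.92-fold higher in plantaris and little different after denervation (-0.11 ± 0.20).

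The subunits of phosphorylase kinase did not share 1 pattern. The muscle catalytic subunit Phkg1 stood at -0.96, -2.04 and 1.19, and the muscle regulatory subunit Phka1 at -3.55, -4.73 and -0.90. Both were higher in plantaris (2.16 ± 0.20 and 2.66 ± 0.23) and lower after denervation (-1.08 ± 0.21 and -1.17 ± 0.28), although the latter folds were below 2-fold with normexp background or the authors' deposited values, and that of Phkg1 also when scaled on detected spots. Phkb, the shared beta subunit, stood at -1.59, -1.13 and -0.55. It was 2.05-fold higher in plantaris, below 2-fold in 3 alternatives, and, at 0.46 ± 0.21, the member with the highest fold after denervation, though short of 2-fold.

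Of the 6 genes of glycogen synthesis and targeting, 2 were at least 2-fold higher and 1 lower in plantaris, against 5.76% and 6.14% of all genes. After denervation 4 were at least 2-fold lower, against 13.5% of all genes. Glycogen synthase and glycogenin were those with the smallest differences between the normal muscles. Glycogen synthase (Gys1) stood at 5.03 in normal soleus, 3.75 in denervated soleus and 5.16 in plantaris. The normal muscles were within the error of each other (0.13 ± 0.20), and the denervated soleus was 2.44-fold lower (-1.29 ± 0.20, or -0.88 on a fainter second probe). Under quantile normalization Gys1 was just under 2-fold (-0.98), as it was in denervated soleus over plantaris (-0.90, in place of -1.42). Glycogenin (Gyg1), the primer, stood at 2.24, 1.23 and 2.08, a fold of -0.16 ± 0.20 in plantaris and -1.01 ± 0.20 after denervation, at the threshold and below it in 3 alternatives. Ugp2, which makes UDP-glucose, stood at 4.75, 2.99 and 5.54, 3.41-fold lower after denervation (-1.77 ± 0.20) and 1.73-fold higher in plantaris. The branching enzyme Gbe1 stood at -0.89, -1.51 and -1.90, lowest in plantaris (-1.01 ± 0.21, below 2-fold with median scaling or normexp background).

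Ppp1r3a and Ppp1r3c encode glycogen-targeting subunits that bring protein phosphatase to glycogen, where it activates the synthase and shuts off the phosphorylase. Ppp1r3c stood at 3.60 in normal soleus, 1.40 in denervated soleus and 5.06 in plantaris, 2.75-fold higher in plantaris (1.46 ± 0.20) and 4.59-fold lower after denervation (-2.20 ± 0.20). Ppp1r3a, the striated muscle form, stood at 0.55, -0.28 and 2.15, with folds of 1.60 ± 0.20 and -0.83 ± 0.20, and its second probe gave 1.37 and -0.91.

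**Figure D5:**
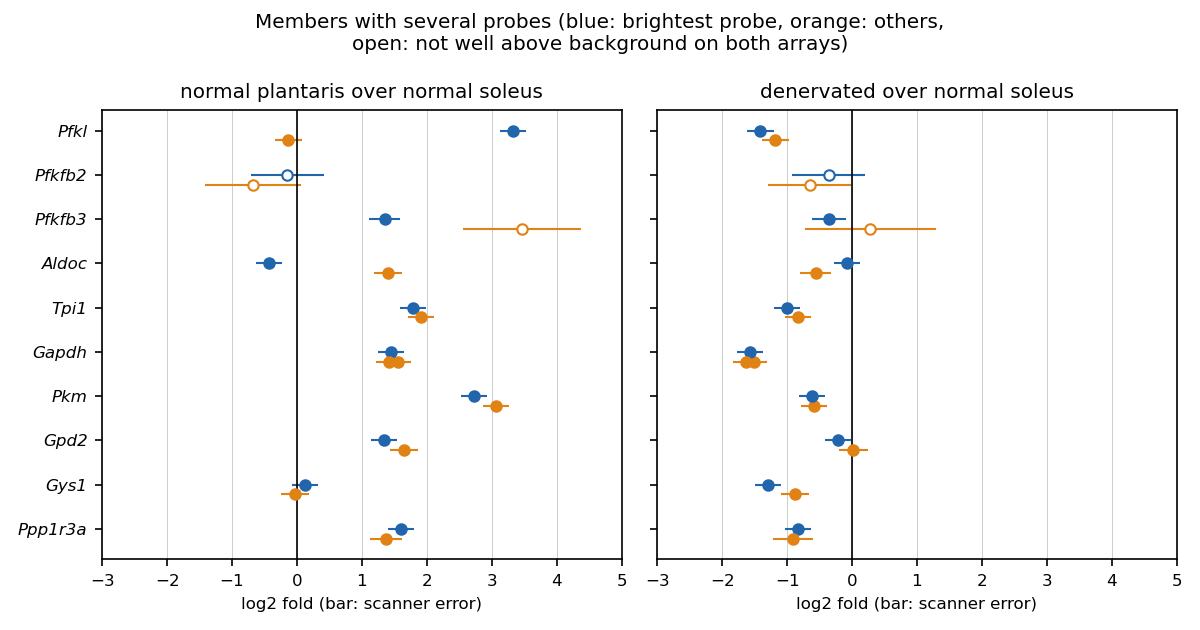
Log2 folds of each probe of the 10 members with several probes in normal plantaris over normal soleus (left) and denervated over normal soleus (right); blue is the brightest probe, orange the others, bars are the scanner error and open points were not well above background on both arrays. In plantaris over soleus the probes of Pfkl (3.33 and -0.13) and Aldoc (-0.43 and 1.40) lie apart, while the 3 of Gapdh lie between 1.42 and 1.55.

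A wider list of 68 other genes was read the same way, and 58 of them had a probe. In plantaris over soleus 6 of 51 measured were at least 2-fold higher and 4 lower (median 0.23), against 5.76% and 6.14% of all genes. Among the higher ones were Pgm2l1 (2.15), which makes a sugar bisphosphate cofactor, the bisphosphoglycerate mutase Bpgm (2.03), the calmodulins Calm3 (1.67) and Calm2 (1.20), of which calmodulin is also a phosphorylase kinase subunit, and Stbd1 (1.24), a glycogen-binding protein. The lower ones were Pdp2 (-1.56) and Pdk1 (-1.55) of pyruvate dehydrogenase control, and Gys2 and Hk3, which were faint bounds (-1.32 ± 0.95 and -1.15 ± 1.52, or -0.08 and -0.20 with normexp background).

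In denervated over normal soleus 14 of 53 wider genes were at least 2-fold lower and 6 higher, against 13.5% and 8.80% of all genes (median -0.23, or 0.02 with the authors' deposited values). Of the 14, 10 belonged to the entry of pyruvate into mitochondria, where 10 of 13 measured genes were lower and 1 higher (median -1.42). The mitochondrial pyruvate carrier subunits Mpc1 and Mpc2 stood at -2.56 ± 0.20 and -1.89 ± 0.20, and the pyruvate dehydrogenase subunit Dlat at -1.92 ± 0.20, and the 10 lower genes ranged from -2.56 to -1.03. With the authors' deposited values Pdpr (-0.79), Dld (-0.96) and Pdp2 (-0.98) were below 2-fold. In plantaris over soleus Mpc1, Mpc2 and Dlat stood at -0.27, 0.09 and 0.25. Stbd1 was the wider gene measured on both arrays with the highest denervation fold (2.25 ± 0.20), with levels of 1.66 in normal soleus, 3.92 in denervated soleus and 2.90 in plantaris. Pdk3 was at 1.43 ± 0.36 and Gys2, the liver glycogen synthase, at 1.17 ± 0.37. The gluconeogenic genes Pck1 and G6pc1 and the regulator Gckr were above background in denervated but not in normal soleus. Their log2 folds against the dim array were 2.53 ± 0.81, 1.18 ± 0.78 and 1.38 ± 0.51. With normexp background, Pdk3 was at 0.44, Gys2 at 0.29, Pck1 at 0.44 and Gckr at 0.09, and G6pc1 had no fold, so that of the 6 higher genes Stbd1 was the 1 still past 2-fold (2.21). Among the other lower genes were Pklr (a bound, -2.07 ± 0.66), Hk3 (a bound, -1.50 ± 1.1) and Eno2 (-1.30), with Pklr at -0.85 and Hk3 at -0.76 under normexp background. None of the 6 measured pentose phosphate genes was past 2-fold in either comparison.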

How the data were processed

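Total RNA of whole muscle was labelled with Cy3 and hybridised to 1 array per group, per the labels' protocols. Per the file headers and the submitters' processing notes, Agilent Feature Extraction 10.10.1.1 quantified the arrays. The deposited processed signal is an intensity, background-subtracted and detrended within each array, and raw intensity and other columns of flags (0 or 1) accompany it, per the file headers. The value table that the authors deposited is an intensity as well, equal to the processed signal times 1.60, 1.41 and 1.80 for normal soleus, denervated soleus and plantaris, with the basis of these factors not stated in the labels.

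The log2 processed signal had subtracted from it, on each array, the 75th percentile over 58717 spots that are no controls (Python 3.11.15, pandas 2.3.3). Between 467 and 569 outlier-flagged spots per array were left out, none of them from a probe that stands for a member, and 0 spots were saturated. Repeat spots were averaged, and the brightest probe stood for a gene. The flag for well above background had to be set on 50 percent of a probe's spots or more. Comparisons took genes with such a probe on 1 or both arrays. If on 1 array only, the fold is a bound against the dim array's own signal or its faintest well above background, whichever is higher, and it was left out where that bound had no size. Where the dim array's own signal was the higher, such a bound is the plain difference between the arrays and no lower limit. RefSeq accessions gave symbols for 18005 of 30367 probes, through the GRCr8 gene table, and the 12362 without one were not used. Levels of different probes were added in the marker sums and ranked to pick the brightest probe. Each fold in the main setting was taken within 1 probe.

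A fold counts as called at 1 log2 unit (2-fold), a rule of size, not a test. Its error combines the scanner software's signal errors (median 0.206 log2 units per fold). The procedure was tested on simulated data. Every member is accounted for; named from the wider list are genes past 2-fold in either comparison with normal soleus, except some that are not reported here. The members and lists were chosen with earlier results of these data known. Alternatives were quantile, median and detected-spot scaling, the authors' values, the mean over probes, 2 other filters and keeping outlier spots. Normexp background (limma 3.58.1, offset 50) used median spot signals, chosen after seeing that this was the spot signal at hand.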

Additional observations from a re-analysis of the deposited data

How the results depend on the processing

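Over 9 alternatives, 961 folds of the members were recomputed, of which 824 moved by no more than their error and 137 further. Of those at least 2-fold apart 0 changed sign. Several alternatives left many of the 824 little or no room to move. The 2 other filters and kept outlier spots had little room to move a member fold, and 0 moved further there. With the authors' values 33 of 35 folds in denervated over normal soleus and 35 of 36 in denervated soleus over plantaris moved further. Under quantile normalization these were 15 of 35 and 19 of 36, and 12 of 36 in plantaris over soleus. The number of members at least 2-fold lower in plantaris was 1 in place of 2 with median scaling or normexp background, without Gbe1. The number at least 2-fold higher in denervated soleus than in plantaris was 1 under quantile normalization (Ldhb) and 2 with the authors' values (Pfkp and Pygb), in place of 0. The members' median for denervated over normal soleus was -0.59 under quantile normalization and -0.62 with the authors' values, and for denervated soleus over plantaris -1.91 and -2.06. With the authors' values the median over all genes was 0.27 and 0.36 in these comparisons, in place of 0.03 and 0.01. The wider list's median then was 0.02 for denervated over normal soleus and -0.16 for denervated soleus over plantaris. Small folds that changed sign in at least 1 alternative were those of Aldoc and Gys1 in plantaris over soleus, of Aldoc, Pgam1, Ldha, Gpd2, Pygb and Pgm1 in denervated over normal soleus, and of Aldoc in denervated soleus over plantaris. The count of members ordered plantaris, soleus, denervated was between 23 and 26. The cause of these shifts was not tested, and normexp on mean spot signals was not run. The 3 arrays limit every statement to these samples, and faint genes such as Pfkfb2, Pfkfb4, Hk3 and Pck1 are limited by signal over background. No paired analysis was possible because each group has 1 array.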
